A study of Mus musculus with 6 samples.

Results

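Accessible sites of the mouse liver that lie close together and changed in opposite directions after fasting are described here. They were found in DNase I hypersensitivity maps of livers from C57BL/6 mice, an inbred laboratory strain, namely 3 libraries of mice with free access to food (fed) and 3 of mice without food for 24 h (fasted). No genotype, age or further treatment is given in the labels, and the labels do not say that each library came from a separate animal, so differences between replicates may be partly technical. The enzyme DNase I cuts open chromatin most readily, and a hotspot is a stretch with a local excess of cuts. Hotspots of the 6 libraries that shared at least 1 bp on chromosomes 1 to 19 were merged into 72722 regions, of which 36088 were called in all 6 libraries. As the height of a region in each library, the greatest of the deposited maximum densities of tags among its hotspots was taken, a signal of unstated scale. Heights were compared as log2(density + 1) less the median of the library over the 36088 regions, and a difference is always the fasted mean minus the fed mean on this scale. A region is called risen or fallen here when the difference was at least 0.6 in size and the 3 fasted and 3 fed values did not overlap. Of the 36088 regions 5206 met this (14.4%), 2481 risen (6.87%) and 2725 fallen (7.55%), and with no minimum size the groups did not overlap at 31.8%. Without the centring the split was 1834 risen and 3381 fallen. The regions of interest are those with a region of the opposite direction within 20 kb, measured between the nearest edges. There were 249 of them, 128 risen and 121 fallen, in 143 risen-fallen pairs.

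Open sites near one another are commonly a promoter with its enhancers, or several enhancers of one gene, and each is held open by the transcription factors bound to it. In the liver, fasting lowers insulin and raises glucagon and glucocorticoids, and factors such as the glucocorticoid receptor, CREB and PPARα act at enhancers of genes for glucose production, fatty acid oxidation and ketone production. Feeding acts through insulin on other factors, among them those that drive fat synthesis. The files give positions in the build mm9, and gene positions and sequences of that build were not used here, so sites are named by their coordinates as the files give them. Whole liver holds several cell types, and fewer cells of a type cannot be told apart from less open chromatin per cell. The liver label was not checked against marker genes here.

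Each library had its own list of 49682 to 63476 hotspots, so calling was done per library. All values of a library (100%) were multiples, to within 0.05, of 1 smallest step. If 1 step is 1 tag, which no label or header states, the deepest libraries were fasted replicate 2 and fed replicate 3, at 1.90 and 1.64 times the depth of the shallowest, fed replicate 2. On that reading the lowest library of a member stood at 12 to 261 tags with a median of 49, so counting error is larger at the weakest members.

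Because the rule chose the members by the difference between fed and fasted livers, their differences are given as a description, without a test. The risen members differed by 0.60 to 2.51 (median 0.76) and the fallen members by -2.09 to -0.60 (median -0.83). The corresponding medians over all 2481 risen and 2725 fallen regions were 0.83 and -0.88. A size of 1 was reached by 28 of the 128 risen and 41 of the 121 fallen members, beside 724 of the 2481 risen and 1035 of the 2725 fallen regions in all. The standard error of a member's difference, from 3 and 3 libraries, was 0.03 to 0.60 with a median of 0.19. Without centring the libraries, the densities of 236 members did not overlap between groups, and those of 13 did. The rule had already required the centred values of all members not to overlap, so this describes the effect of the centring only. The same count over all changed regions is not given here. At 22 members the gap between the groups was under 0.1 on the log2 scale. Just inside the limit of 0.6 lay a risen region on chromosome 2 (159555702 to 159557669, 0.6005) and a fallen one on chromosome 8 (122457448 to 122458262, -0.602). Just outside it lay a region of chromosome 10 (41277911 to 41278770, 0.599) and another of chromosome 4 (141114357 to 141116403, -0.595), both with an opposite neighbour within 20 kb. The widest gap that was kept was 19.96 kb, on chromosome 8, and the narrowest that was not was 20.005 kb, on chromosome 4.

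Opposite neighbours were a minority among close pairs. Of the 1418 pairs of changed regions within 20 kb, 143 (10.1%) were opposite and 1275 went the same way. Up to 1 kb 11 of 188 pairs were opposite (5.85%), and 29 of 408 (7.11%) when the gap was 1 to 5 kb. The share was 11.2% for gaps of 5 to 10 kb (36 of 322) and 13.4% for 10 to 20 kb (67 of 500). At 20 to 50 kb it was 24.8% (231 of 931) and at 50 to 100 kb 30.6% (336 of 1098). At 100 to 500 kb, taken as the background of the same regions far apart, it was 42.9% (3081 of 7184). The share was still rising there, so this background need not be the level of unrelated regions. The share was thus higher in each wider bin up to that background, and the 95% exact binomial intervals, which count pairs as independent although pairs share regions, ran from 2.96 to 10.2% in the closest bin and from 41.7 to 44.04% in the farthest. Put another way, opposite pairs were spaced more widely within the 20 kb. Their median gap was 8.91 kb (quartiles 3.92 and 14.6 kb) against 6.30 kb (2.18 and 12.5 kb) for pairs in the same direction. Only 28.0% of opposite pairs lay within 5 kb, against 43.6% of same-direction pairs.

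**Figure D1:**
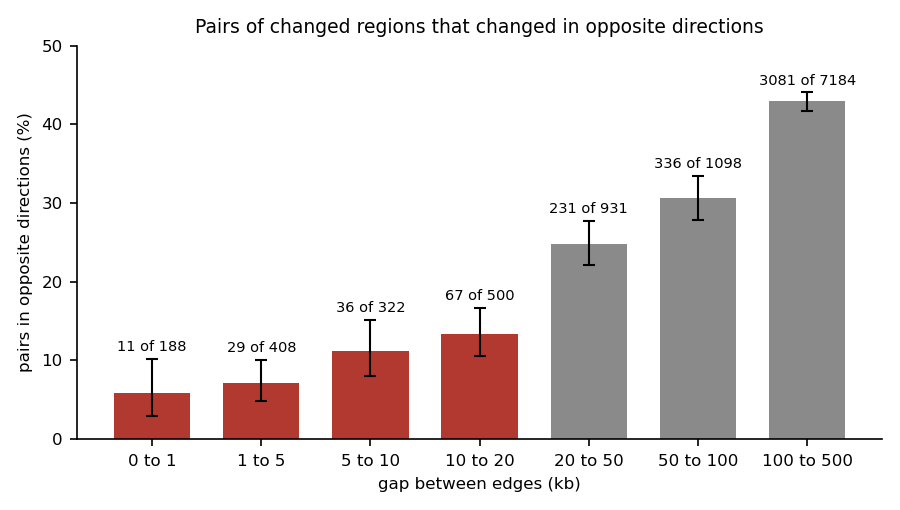
Share of pairs of changed regions that changed in opposite directions (vertical axis, %) by the gap between their edges (horizontal axis, kb); bars are shares over all pairs in the bin, error bars are 95% exact binomial intervals, and the red bars are the gaps that define the members. The share stands at 5.85% for gaps up to 1 kb, 13.4% for 10 to 20 kb and 42.9% for 100 to 500 kb.

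The same arrangement was looked for among sites that the rule did not use, those called in all libraries of one group and in none of the other. There were 852 sites called in fasted livers only and 1153 in fed livers only. Within 20 kb of one another lay 93 pairs of fasted-only sites, 76 pairs of fed-only sites and 27 mixed pairs, so 13.8% of the 196 pairs were mixed (95% exact binomial interval 9.28 to 19.4%). At 100 to 500 kb 45.8% were mixed (477 of 1041). The mixed pair with the smallest gap, 0.442 kb, lies on chromosome 12, a fed-only site at 105318743 to 105327877 with a density of 56.3 ± 5.33 (SD, n = 3) beside a weak fasted-only site at 105328319 to 105328740 with 6.53 ± 0.902 (SD, n = 3). On the same chromosome a fasted-only site (105215125 to 105215824, 17.0 ± 3.32) lies 14.4 kb from a stronger fed-only one (105230197 to 105231744, 72.3 ± 16.3; SD, n = 3). Chromosome 5 held a more even pair 11.3 kb apart, fasted-only at 138535444 to 138536121 (21.04 ± 3.36) and fed-only at 138523372 to 138524123 (28.5 ± 7.97). These 3 pairs were chosen after their values were seen. An uncalled site may still have tags, so no fold is given.

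In 65 opposite pairs (45.5%) no other region called in all 6 libraries lay between, against 771 of the 1275 pairs in the same direction (60.5%). Opposite pairs had the wider gaps (median 8.91 against 6.30 kb), and these shares were not compared at like gaps. In 46 opposite pairs (32.2%) no region of any library lay between, and the largest number of shared regions between was 4. In 64 opposite pairs (44.8%) at least 1 unchanged shared region lay between. Chained by gaps of up to 20 kb, the members formed 109 clusters with a median span of 13.1 kb (2.54 to 32.7 kb), of which 87 held 2 members, 14 held 3, 7 held 4 and 1 held 5. Of the 22 clusters with 3 or more members, 14 had all risen sites on one side and all fallen sites on the other, and in 5 the directions alternated from site to site. For 218 members the opposite partner was a single region, 25 had 2 and 6 had 3, so pairs that share a region are not independent. In addition 59 members (23.7%) lay within 20 kb of a changed region of their own direction.

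The strongest opposite changes are shown by the 10 pairs in which the smaller of both differences was greatest, taken from different clusters. The pair on chromosome 4 lies first in that order, with a fallen site (101413909 to 101415360) 2.56 kb from a risen one (101417923 to 101418740) and no region between. The risen site had densities of 24.3, 13.5 and 11.9 in fed and 38.3, 47.0 and 35.4 in fasted libraries (replicates 1 to 3), a difference of 1.37 (SE 0.33). Its neighbour went from 85.3, 52.8 and 155 to 28.4, 45.4 and 19.98, a difference of -1.47 (SE 0.60). At the fallen site fed replicate 3 stood far above the other fed libraries, and the groups were separated there by 0.039 on the log2 scale.

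Among the most even changes was a pair on chromosome 1, 14.2 kb apart. The risen site at 89675376 to 89676910 had 25.4, 22.1 and 19.5 in fed and 70.4, 46.6 and 65.7 in fasted libraries. In contrast the site at 89660110 to 89661184 had 44.1, 32.2 and 34.1 in fed and 16.7, 12.2 and 13.9 in fasted libraries. All fed libraries thus had the second site higher and all fasted libraries the first, with differences of 1.47 (SE 0.15) and -1.22 (SE 0.15). On chromosome 18 a risen site (12805801 to 12807130) showed 41.6, 29.6 and 33.2 in fed against 95.9, 85.6 and 121 in fasted libraries, a difference of 1.59 (SE 0.14). At 11.2 kb from it, the site at 12793519 to 12794577 fell from 62.5, 64.4 and 43.03 to 20.4, 26.2 and 24.5 (difference -1.13). Another member between them (12795095 to 12796236), 9.57 kb from the risen site, went from 120, 108 and 92.5 to 48.5, 48.7 and 53.9, so that 2 fallen sites lie beside 1 risen site.

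On chromosome 10 the risen site at 124707017 to 124708110 went from 11.4, 8.24 and 9.84 in fed to 57.3, 39.5 and 30.6 in fasted libraries, a difference of 2.05 (SE 0.30) and the greatest rise among the 10 pairs. Its fallen neighbour 14.1 kb away (124722247 to 124722984) went from 23.5, 14.6 and 22.9 to 8.51, 8.49 and 8.17. The fasted values of that neighbour were nearly equal, and the spread was all in the fed group. On chromosome 7 a site at 87590481 to 87591944 rose from 17.3, 15.4 and 13.7 to 46.0, 64.5 and 37.8, and the site at 87600853 to 87603223, 8.91 kb away, fell from 39.0, 36.7 and 37.1 to 11.9, 22.7 and 18.2. Both differences, 1.67 and -1.02, had a standard error of 0.29.

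The next pairs had wider spreads or gaps. Chromosome 6 held a risen site (108598033 to 108598895) with 28.3, 19.9 and 15.3 in fed and 36.0, 55.5 and 45.1 in fasted libraries. At 19.2 kb from it a fallen site (108618050 to 108618931) had 21.7, 20.6 and 34.1 in fed and 11.6, 9.87 and 6.66 in fasted libraries. The order of both sites differed between fed libraries, with log2 ratios of risen to fallen site of 0.37, -0.05 and -1.10, and in each fasted library the risen site stood far above its neighbour. On chromosome 2 a low risen site (169772635 to 169774497) went from 9.93, 5.995 and 10.99 to 20.7, 31.0 and 15.1. The fallen site 16.7 kb away (169753399 to 169755976) went from 56.3, 30.0 and 68.7 to 18.7, 16.2 and 29.1. It was far the taller in all fed libraries. In fasted livers the means were close, 22.3 at the risen and 21.3 at the fallen site. The taller site differed between fasted libraries, with log2 ratios of risen to fallen site of 0.14, 0.90 and -0.90. A pair on chromosome 5 lay 12.3 kb apart. Its risen site (89770724 to 89772086) had 14.7, 7.49 and 13.0 in fed and 21.8, 38.1 and 22.7 in fasted libraries, and its fallen site (89784399 to 89785416) 39.4, 23.2 and 41.4 in fed and 11.1, 18.6 and 14.8 in fasted libraries. In both of these pairs fed replicate 2 had the lowest fed value at both sites. Chromosome 8 held a risen site with tighter values (119878833 to 119879821), from 34.6, 37.8 and 30.7 to 74.9, 70.6 and 62.7. Its fallen neighbour (119892419 to 119893233, 12.6 kb away) went from 62.5, 36.7 and 58.6 to 20.99, 12.6 and 20.3. Fed replicate 2 was again low at the fallen site, and in that library the risen site was slightly the taller of the pair (37.8 against 36.7). The last of the 10, on chromosome 17, belongs to the largest cluster and is described with it.

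At the 10 pairs the fed mean of the fallen site exceeded that of the risen site, and the fasted means were the other way round. Over all 143 pairs, the site that was taller changed in every library at 64 (44.8%). There the fallen site was the taller in all 3 fed libraries and the risen site the taller in all 3 fasted ones. The rule requires the risen site to gain on the fallen one, so no pair can switch the other way. This share is therefore a description, as is the order at the 10 pairs, which were picked for large changes. In 30 pairs the risen site was the taller in all 6 libraries, and in 11 the fallen site was. The remaining 38 pairs had no fixed order within at least 1 group. The log2 ratio of risen to fallen site had a median of -0.74 in fed and 1.14 in fasted livers, and its shift ranged from 1.23 to 3.50 with a median of 1.70, a quantity whose minimum and direction the rule fixes. For the summed density of both sites, the densities of each library were first divided by its median level. This sum is also a description, since changes that the rule requires to be opposite cancel in part. It overlapped between groups in 91 pairs (63.6%), was higher in every fasted library in 29 and lower in every fasted library in 23. Its log2 change had a median of -0.02 and ran from -0.77 to 1.00, with 70 pairs above 0 and 73 below.

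**Figure D2:**
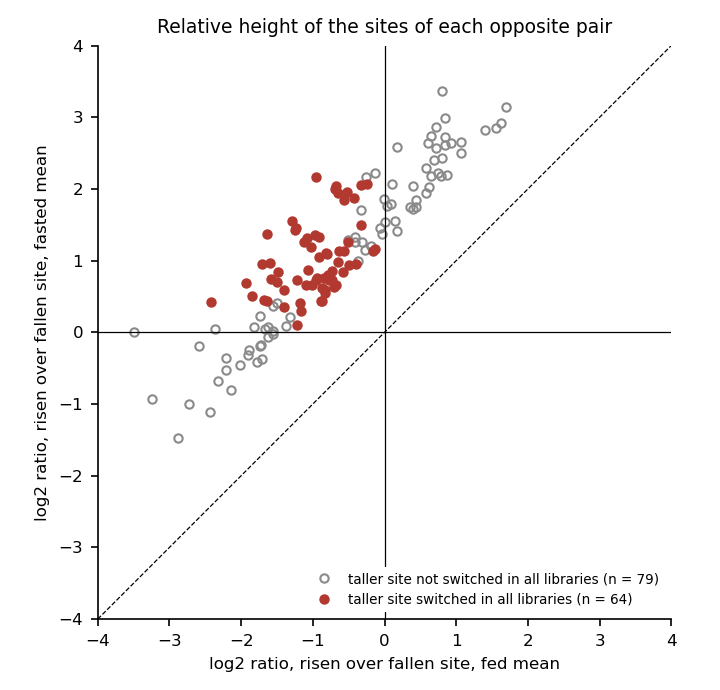
Log2 ratio of the risen to the fallen site of each of the 143 opposite pairs, mean of the fed libraries on the horizontal and of the fasted libraries on the vertical axis; the dashed line marks equal ratios, and red points are the 64 pairs whose taller site switched in all 6 libraries. All points lie above the dashed line, as the rule requires, and the red points lie to the upper left, where the ratio changes sign.

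The closest opposite neighbours lay less than 1 kb apart. On chromosome 12 a fallen site (110090463 to 110092152) was 0.132 kb from a wide risen region (110092284 to 110097803). The fallen site had 57.4, 41.97 and 60.7 in fed and 22.1, 26.6 and 24.5 in fasted libraries, and the wide region 62.9, 50.2 and 50.4 in fed and 81.1, 83.5 and 90.5 in fasted libraries. Their differences were -1.002 (SE 0.20) and 0.72 (SE 0.09), so in fed livers the heights were alike and in fasted livers they were not. When hotspots up to 150 bp apart were merged, both became 1 region whose difference was 0.44, and the fall was no longer visible.

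On chromosome 17 the sites at 35612556 to 35613998 and 35614178 to 35615348 lay 0.18 kb apart. The first fell from 9.19, 17.99 and 16.0 to 5.96, 4.34 and 5.15, and the second rose from 26.5, 24.0 and 20.6 to 37.7, 43.2 and 50.2. Here the risen site was the taller in all 6 libraries. A like pair on chromosome 1, 0.199 kb apart, fell from 24.3 ± 5.62 to 12.8 ± 1.93 (155879452 to 155880506) and rose from 41.9 ± 4.15 to 61.5 ± 1.93 (155880705 to 155881988; SD, n = 3). On chromosome 18, at a gap of 0.353 kb, a fallen site (55005914 to 55007319) went from 51.5 ± 7.51 to 27.6 ± 5.75 and the site beside it (55007672 to 55008647) from 15.1 ± 3.45 to 24.1 ± 2.21 (SD, n = 3), which brought both to similar heights in fasted livers. The fifth, on chromosome 1 at a gap of 0.357 kb, was weak. Its risen site (89669268 to 89670493) had 13.6, 12.0 and 11.2 in fed and 29.2, 11.6 and 20.6 in fasted libraries. These densities overlap as deposited, and only the centred values did not, by 0.046 on the log2 scale.

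The cluster with the most members spans 32.5 kb of chromosome 17 (28556766 to 28589280), with 3 risen and 2 fallen sites in the order risen, fallen, risen, risen, fallen. The outermost risen site (28556766 to 28558359) had 20.2, 9.37 and 20.8 in fed and 43.1, 47.8 and 21.8 in fasted libraries, so fasted replicate 3 was close to the fed values and the groups were separated by only 0.0045 on the log2 scale. The fallen site 7.17 kb further (28565533 to 28566773) went from 44.1, 34.1 and 39.6 to 11.9, 14.4 and 11.5, a difference of -1.48 (SE 0.18) with wide separation. The next risen sites went from 11.6 ± 3.98 to 25.6 ± 5.86 (28578228 to 28579874) and from 24.97 ± 5.68 to 51.5 ± 8.14 (28582668 to 28584344; SD, n = 3). The last site (28588044 to 28589280) fell from 24.8 ± 3.10 to 13.5 ± 2.69. The tallest shared region of the stretch, at 28574713 to 28576197, was not among the changed ones, with means of 91.5 in fed and 65.97 in fasted libraries and a difference of -0.38.

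A pair of clusters on chromosome 10 held 3 risen sites and 1 fallen site each. In the first (98669736 to 98697550) the fallen site at 98689072 to 98689906 had 82.0, 51.3 and 68.4 in fed and 17.9, 17.8 and 21.2 in fasted libraries, a difference of -1.67 (SE 0.18). Risen sites flanked it on both sides, and the nearest, at 98695009 to 98697550, went from 54.8, 50.6 and 51.3 to 84.8, 71.8 and 88.4. That rise of 0.71 had a standard error of 0.03, among the smallest of any member. In the second (124702689 to 124722984) the risen site described above had smaller rises beside it, of 0.62 (124702689 to 124703597, 9.88 ± 0.364 to 14.8 ± 1.30) and 1.13 (124706102 to 124706991, 6.45 ± 1.23 to 14.4 ± 1.48; SD, n = 3).

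The clusters of chromosomes 1 and 6 each divided into a rising and a falling side. On chromosome 1 (89660110 to 89676910) the order was fallen, fallen, risen, risen, with differences of -1.22, -0.61, 0.69 and 1.47. The sizes were greatest at the ends and smallest where the directions met. Both inner sites lay near the limit of 0.6, below which no member can lie. At the inner risen site the groups were separated by only 0.046 on the log2 scale (SE of the difference 0.33). Chromosome 6 (119335155 to 119356695) had the order risen, risen, fallen, fallen, with 0.66, 0.62, -0.81 and -0.70. Its risen sites reached 17.4 ± 1.06 and 32.4 ± 4.29 in fasted libraries from 11.5 ± 2.53 and 21.8 ± 1.41 in fed ones. The fallen sites went from 31.2 ± 3.74 to 16.5 ± 2.74 and from 41.2 ± 3.11 to 24.0 ± 5.91 (SD, n = 3).

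**Figure D3:**
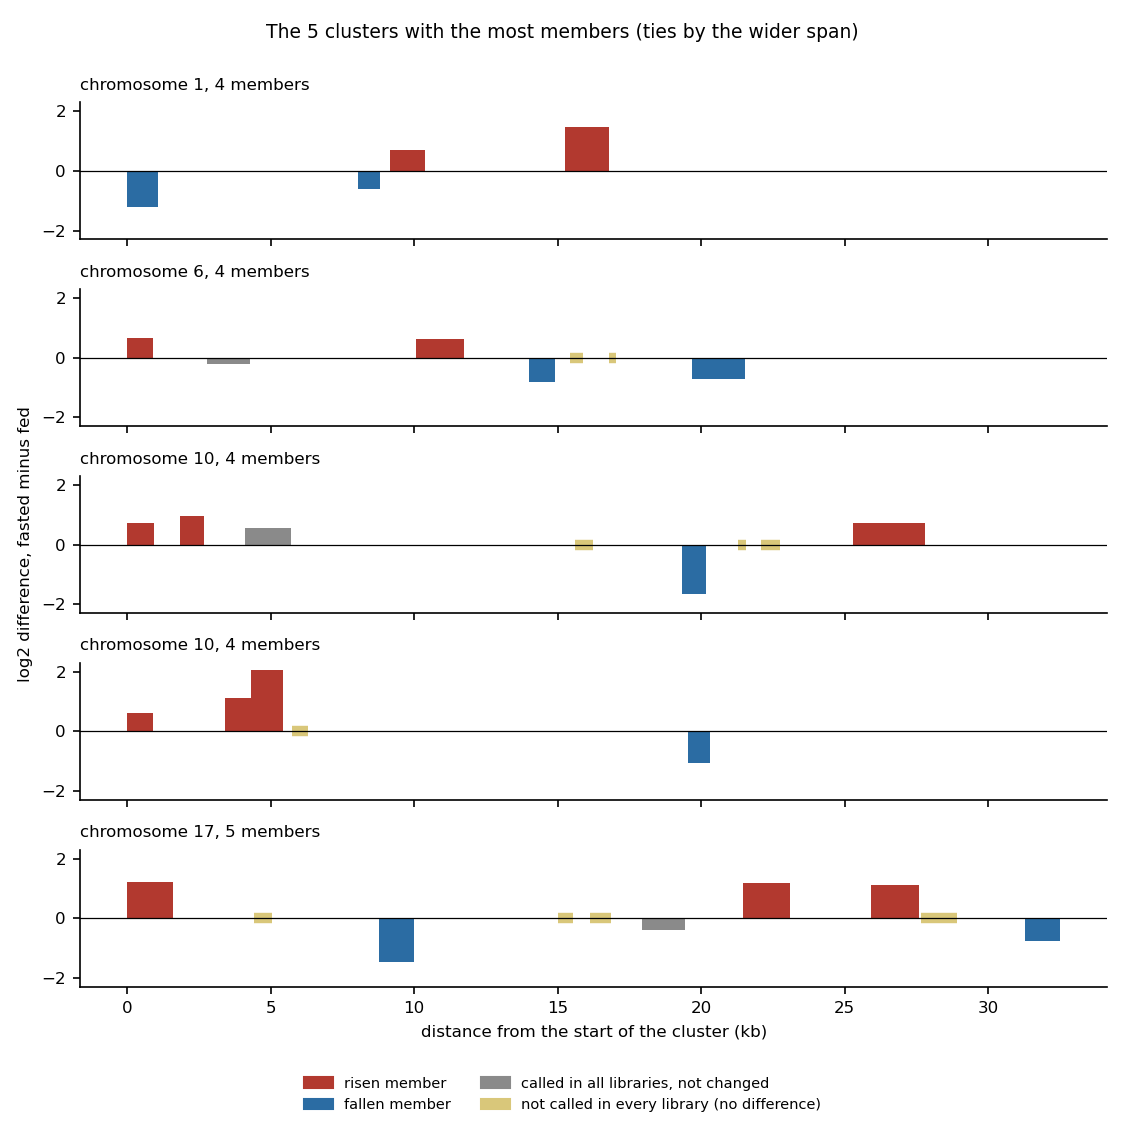
Log2 difference, fasted minus fed (vertical axis), of the regions in the 5 clusters with the most members (of the 7 with 4 members, the 4 of widest span), by distance from the start of the cluster (horizontal axis, kb); bar width is the width of the region, red and blue are risen and fallen members, grey are unchanged shared regions, and yellow marks regions not called in every library, which have no difference. Directions change once along the clusters of chromosomes 1 and 6 and the second of chromosome 10, 2 times in the first of chromosome 10, and 3 times on chromosome 17.

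The 3 pairs with the highest mean density lie on chromosomes 2, 9 and 18. On chromosome 2 the risen site (167669383 to 167670709) had 81.6, 42.3 and 87.7 in fed and 188, 152 and 195 in fasted libraries. Its fallen neighbour (167653488 to 167654490), 14.9 kb away with 4 shared regions between, had 97.8, 84.3 and 90.9 in fed and 38.9, 59.0 and 47.8 in fasted libraries. Fed replicate 2 stood low at the risen site, but the taller site still switched in all 6 libraries. On chromosome 9 a wide risen region (46036311 to 46040832) went from 57.0, 68.2 and 61.1 to 99.01, 75.4 and 109, and a fallen region 11.9 kb from it (46022794 to 46024434) from 97.5, 95.2 and 107 to 63.6, 53.3 and 59.9. Their summed density, after division by the median level of each library, barely moved, with a log2 change of -0.01. The third of the tallest pairs is the one on chromosome 18 with the fallen site at 12795095.

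Chromosome 8 held more members than any other chromosome, 31 of its 285 changed regions (10.9%), against 1.89 to 6.64% on the other 18 chromosomes. They fell into 12 clusters, 6 of them between 108274122 and 122458262. In a cluster of that part (120191039 to 120201523), 3 sites fell around 1 that rose. The fallen sites went from 51.6 ± 10.3 to 20.4 ± 6.51, from 47.2 ± 3.61 to 19.3 ± 2.08 and from 63.3 ± 7.25 to 24.98 ± 3.54, while the site at 120195878 to 120197835 went from 27.0 ± 6.19 to 42.4 ± 6.84 (SD, n = 3). In another (117073682 to 117085931) 1 risen site, from 10.1 ± 4.61 to 17.8 ± 3.99, lay beside 3 that fell, the nearest of them from 33.1 ± 5.47 to 12.7 ± 2.91. Chromosome 8 and these clusters were singled out after their values were seen.

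In width and density, members were much like other changed regions with changed neighbours. Their median width was 1043 bp, against 1071 bp for the 1710 changed regions whose changed neighbours all went the same way, 1017 bp for the 3247 with no changed neighbour, and 1053 bp for all shared regions. The median density over the 6 libraries, which averages the heights that the rule compared, was 26.6 for members and 27.4, 20.1 and 24.1 for those sets. Members lay in denser surroundings, with a median of 4 other shared regions within 20 kb (quartiles 3 and 5) against 3 (2 and 4) for regions with same-direction neighbours and 2 (1 and 3) for all shared regions. A site with more neighbours has more chances to have an opposite one, so the rule itself favours this. In at least 1 library 11.2% of members held more than 1 hotspot, against 12.9% of all shared regions. Risen members were somewhat wider than fallen ones (medians 1067 and 990 bp), as were all risen against all fallen regions (1067 and 1005 bp).

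Sites called in 1 group only were counted within 20 kb of the members. Over all shared regions, 4.62% lay near a fasted-only and 5.41% near a fed-only site. The shares were 13.4 and 2.62% over all risen regions, and 2.94 and 12.6% over all fallen regions. Of the 128 risen members 16 (12.5%) lay within 20 kb of a fasted-only site and 9 (7.03%) of a fed-only site. Of the 899 risen regions with same-direction neighbours only, 20.02% lay near a fasted-only and 2.00% near a fed-only site. The fallen members had 10 of 121 (8.26%) near each kind, against 4.07% near a fasted-only and 19.4% near a fed-only site among 811 fallen regions with same-direction neighbours only. The 95% exact binomial intervals for fed-only sites near risen regions, 3.27 to 12.9% for members and 1.19 to 3.15% for the others, did not overlap, and those for fasted-only sites did (7.32 to 19.5% and 17.5 to 22.8%). Near fallen regions the intervals for fasted-only sites overlapped (4.03 to 14.7% for members and 2.82 to 5.67% for the others). Those for fed-only sites near fallen regions did not (4.03 to 14.7% and 16.7 to 22.2%). Regions near each other share such sites, so these intervals cover counting error only. The direction of changed neighbours within 20 kb defined both sets, and close sites mostly changed the same way. The rule itself therefore favours such a contrast.

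Unchanged shared regions were examined within 20 kb of the members. The 183 that lay nearer to a risen member had a median difference of 0.14, and 66.1% were above 0. The 148 nearer to a fallen member had a median of 0.07, with 55.4% above 0, and all 30882 unchanged regions a median of 0.05, with 56.3% above 0. The median was thus somewhat above that of all unchanged regions beside risen members, and beside fallen members it was close to it. Between the sites of a pair lay 87 unchanged regions, with a median of 0.14.

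The ratio within pairs was also read in a library that had no part in choosing them, leaving out each library in turn. Pairs were chosen from the other 5 by the same rule, among the same 36088 regions (which still required a call in the library left out), and the log2 ratio of risen to fallen site in the library left out was compared with the means of both groups. It lay nearer to its own group in 94.7, 89.3 and 94.2% of pairs when fed replicates 1 to 3 were left out (178 of 188, 158 of 177 and 145 of 154). For fasted replicates 1 to 3 it did so in 95.8, 87.9 and 93.8% (161 of 168, 160 of 182 and 166 of 177). The median ratio was -0.67 to -0.47 in a fed library left out and 0.88 to 1.02 in a fasted one, closer to 0 than the -0.80 to -0.76 and 1.15 to 1.26 of the libraries of the same group that chose the pairs. A ratio can lie nearer to its own group when only 1 site of the pair shifts. Pairs with both sites on the side of their own group were not counted. Single members lay on the side of their own group in 76.7 to 89.04%, and changed regions without an opposite neighbour in 78.1 to 85.4%, so both ranges overlapped. Fed replicate 2 and fasted replicate 2 gave the lowest values of their groups.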

How the data were processed

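DNase I hypersensitivity libraries of 3 fed and 3 fasted mouse livers were used. Per the labels' protocols, nuclei were digested (40 U/ml) and fragments were selected at 100 to 500 bp. The submitters' processing notes name CASAVA 1.8 and mm9. Aligner and hotspot caller: not given in the sources used here. Per the file headers, the authors deposited for each hotspot a maximum and average tag density (a coverage signal), a p-value and a z-score. The score and the p-value deposited by the authors were not used. Groups and replicate numbers came from the titles.

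Regions, differences, pairs, clusters and intervals were computed with numpy 2.4.6, scipy 1.17.1 and pandas 2.3.3 in Python 3.11.15, as the results state (pseudocount 1, difference 0.6, window 20 kb). Members and lists were chosen with earlier results of these data known. No test was made on the contrast that chose them. The named pairs are the 10 with the greatest smaller difference (1 per cluster), the 5 with the smallest gap and the 3 tallest, with the 5 clusters of most members (ties by the wider span, which took 4 of the 7 clusters with 4 members). The pair search was run on simulated data with opposite changes planted in adjacent regions and independent noise of equal spread. Neighbours in it share no changes, so the run checks the code only. Alternatives varied the pseudocount, centring, density measure, limits, merging, calling and filters, and left out each library. Gene lists, gene positions and motifs were planned and not analysed here, since no mm9 annotation or genome was used.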

Additional observations from a re-analysis of the deposited data

How the results depend on the processing

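The number of members depended on the size and window limits, the pseudocount, the density measure and the treatment of missing calls. The 249 members and 143 pairs became 776 and 463 with a difference of at least 0.4, 70 and 40 with 0.8, and 23 and 13 with 1. They became 75 and 40 within 5 kb, 140 and 76 within 10 kb, and 605 and 374 within 50 kb. A pseudocount of 10 gave 74 and 42, average density 128 and 71, the upper 50% of regions by density 81 and 46, and missing values set at the lowest density of the library 1222 and 769. With hotspots required to cover 50% of a region 95 pairs were left. Fewer regions were tested in some of these, and the cause of the other shifts was not tested. The share of close changed pairs that were opposite, 10.1%, was 15.4, 7.08 and 5.75% at differences of 0.4, 0.8 and 1. It was 6.71, 8.28 and 15.9% within 5, 10 and 50 kb, 7.92% with a pseudocount of 10, 7.67% by average density and 14.8% with missing values filled. The median gap of 8913 bp was 12598 bp at a difference of 1, 2406.5, 4162 and 25246 bp within 5, 10 and 50 kb, and 7691.5 bp in the upper 50%. The share of pairs whose taller site switched, 44.8%, was 54.8% with a pseudocount of 10, 26.8, 60.0 and 76.9% at differences of 0.4, 0.8 and 1, 56.5% in the upper 50% and 31.6% with missing values filled.

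Leaving out each replicate gave 269 to 326 members and 154 to 188 pairs, with 10.5 to 12.0% of close pairs opposite, a median gap of 8415.5 to 11091.5 bp and 39.6 to 47.4% of pairs switching. More regions qualify when fewer libraries must separate, and 185 (without fasted replicate 2) to 213 of the 249 members were found again. Without both deepest libraries, a setting added after the data were seen, there were 332 members, 162 of them among the 249. With no centring 206 regions qualified, 166 of them among the 249, and 35.2% of the changed regions were risen in place of 47.7%. With missing values filled 58.4% were risen. Of 723 values of the 48 named regions under the other settings 681 stayed within the spread between replicates. Another 41 moved by more than that without a change of direction, and 1 reversed. The reversed value was that of the fallen site of chromosome 12 at 110090463, at 0.44 once merged with its neighbour across 150 bp. Values were taken only where exactly 1 region matched, and some settings, such as no centring, shift all differences alike. Agreement is thus partly built in. Of the 249 members 74 were found again with a pseudocount of 10, 119 by average density and 235 with merging across 150 bp. No paired analysis was possible because the results come from no test, and the labels give no basis for pairing a fed with a fasted library. Gene positions, gene lists and motifs were not run.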

Other observations

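On chromosome X, outside the chromosomes studied, the same rule found 36 risen and 54 fallen regions among 956. Of their 13 pairs within 20 kb none was opposite. An approximate upper limit for the share, 3 divided by the 13 pairs, is 23.1%. These pairs were thus too few to tell the chromosome from a share like the 10.1% of the autosomes.

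The libraries did not limit the members evenly. Among risen members fed replicate 1 was the highest fed library at 62 of 128, and among fallen members fed replicate 2 was the lowest fed library at 63 of 121. The fasted libraries were more even, from 37 to 49 of 128 and from 37 to 46 of 121. The same counts over all risen and all fallen regions are not given, so the unevenness need not be particular to the members. Which property of these libraries goes with it was not tested.

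The members with the greatest single changes lay outside the pairs named above and were picked after their values were seen. A site of chromosome 15 (25874468 to 25875651) had 8.09, 7.49 and 6.18 in fed and 41.7, 68.5 and 28.2 in fasted libraries, a difference of 2.51. A site of chromosome 13 (102487870 to 102490123) had 62.5, 36.7 and 59.7 in fed and 10.2, 11.2 and 10.6 in fasted libraries, a difference of -2.09. In both the groups were far apart, by 1.71 and 1.45 on the log2 scale.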
